A study of Arabidopsis thaliana with 12 samples.

Results

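The data concern 5 Arabidopsis thaliana genes for chloroplast enzymes of carbon fixation, reductant export and thiol redox control. Members were the probes that the platform annotation lists with exactly 1 gene, where that gene is PRK, SBPASE, AT5G58330, NTRC or AT3G52960. Each of the 5 had a single such probe, out of 692 probes listed with 1 gene and 3439 probes in all, and none of their values was 0. Total RNA of wild-type plants of the Columbia 0 ecotype was measured on arrays in 12 samples. In 6 samples the plants had normal CO2 (day 0 in the titles), and in the other 6 they had spent the last 48 h at 0.003% CO2 by volume (day 2). No group without the day difference was measured, so that low CO2 and the time between the groups cannot be told apart. The labels name no organ, age or light condition, and nothing in them tells whether different plants were behind the 6 samples of each group. The p-values therefore reflect sample-to-sample spread alone, part or all of which may be technical. None of the 6 root or 6 seed marker genes listed was measured by a probe of 1 gene, so the organ could not be checked.

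In chloroplasts, light drives electrons through photosystem I to ferredoxin, and ferredoxin-thioredoxin reductase passes them to thioredoxins, small proteins that reduce disulfide bonds in target enzymes. Phosphoribulokinase, sedoheptulose-bisphosphatase and NADP-dependent malate dehydrogenase are classical targets that are active when reduced and inactive in the dark. NTRC is a second entry point, a fusion of an NADPH-dependent thioredoxin reductase and a thioredoxin, best known for keeping 2-Cys peroxiredoxins reduced. Peroxiredoxin IIE removes peroxides in the plastid. These switches act on the proteins, whereas the arrays measured the transcripts.

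All values were intensities in arbitrary units, scaled by the authors in a way that the sources used here do not give. Array medians were 0.489 to 0.576 at normal and 0.343 to 0.373 at low CO2, so a typical probe was lower at low CO2 on the deposited scale, by a median of -0.60 in log2. Arrays were therefore quantile normalized for the main comparison, which set the median change of all probes to -0.05. Change was common. With limma, 1457 of 3439 probes (42.4%) had a Benjamini-Hochberg adjusted p under 0.05. Within a group, samples with adjacent numbers (1 and 2, 3 and 4, 5 and 6) resembled each other, with an estimated correlation of 0.567 over all probes, and fold changes depended on where a probe fell in a cycle of 288 probe numbers, called its place below. The change of each gene is also given with adjacent samples averaged (3 against 3) and with the place taken off. For the latter, the median deviation of the probes at a place was subtracted in each sample. The amount taken off a fold change therefore need not equal the median fold change of the place.

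Of the 5 genes, PRK, SBPASE and NTRC fell, AT5G58330 rose and AT3G52960 did not pass in the main comparison of 6 against 6. A count of 4 of 5 compares with 42.4% of all probes. By direction, 3 fell, as did 23.5% of all probes, and 1 rose, as did 18.9%. With adjacent samples averaged 1 of the 5 passed, AT5G58330, against 18% of all probes. SBPASE and NTRC, at -0.68 and -0.80, were close to the medians of the other probes at their places, -0.68 and -0.77. The median log2 fold change of the 5 was that of SBPASE, -0.68 against -0.05 for all probes, and the 5 ran from -0.80 to 2.44. For 4 of the 5 genes the deposited intensities showed no overlap between low and normal CO2, against 34.5% of all probes. Of these, 3 were lower at low CO2 (27.3% of all probes) and 1 was higher (7.24%). After normalization 3 of the 5 still had no overlap, against 28% of all probes. In 4 of the 5 genes all 6 same-numbered samples differed in 1 direction, against 47.6% of all probes. Plants with fewer expressing cells and plants with less transcript per cell cannot be told apart in such samples.

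**Figure D1:**
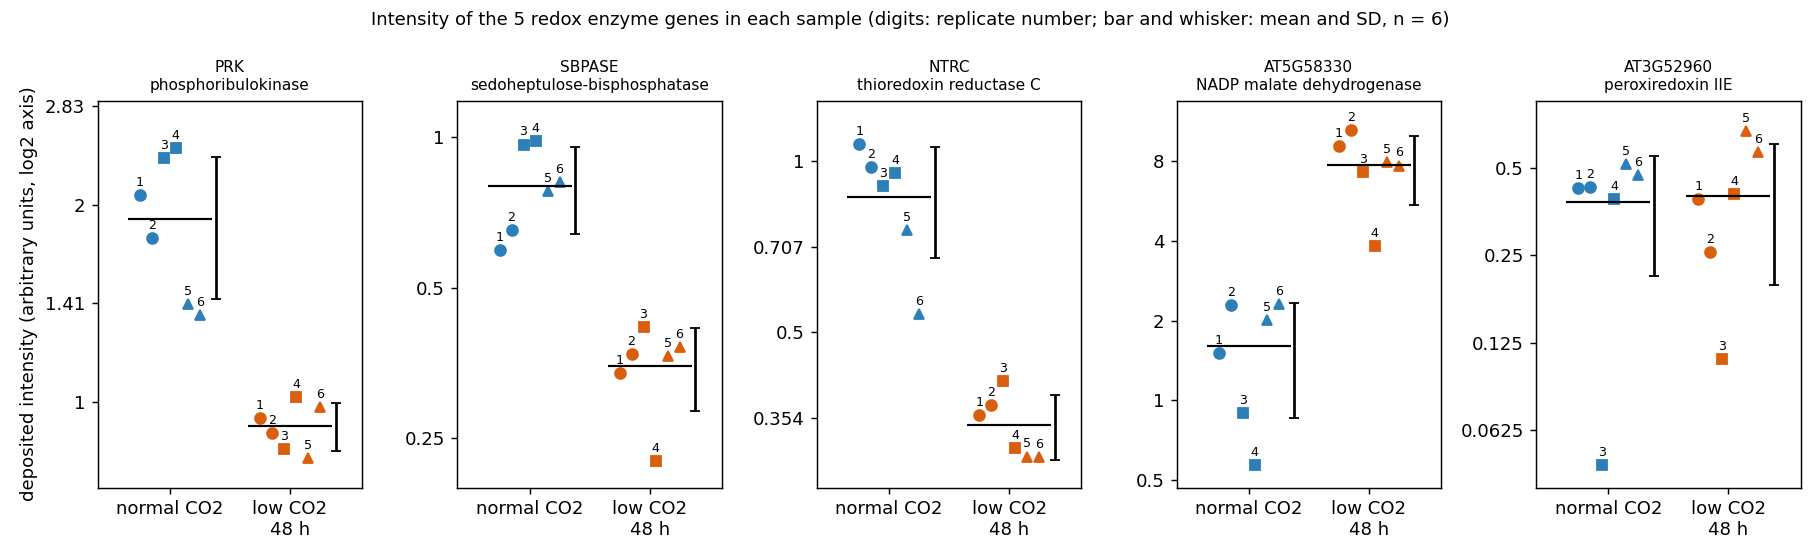
Deposited intensity (arbitrary units, log2 axis) of the 5 genes in each of the 6 normal and 6 low CO2 samples; digits are replicate numbers, symbols mark adjacent numbers, lines are means and whiskers the SD (n = 6). PRK, SBPASE and NTRC were lower and AT5G58330 higher in every low CO2 sample than in every normal one, while the AT3G52960 values overlapped.

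PRK encodes phosphoribulokinase, which makes the CO2 acceptor ribulose 1,5-bisphosphate in the last step of the Calvin-Benson cycle. Its intensity at normal CO2 ran from 1.36 through a median of 1.92 to 2.44, and at low CO2 from 0.819 through 0.920 to 1.02. The highest low CO2 sample was thus below the lowest normal one. The means were 1.90 ± 0.465 and 0.917 ± 0.0776 (SD, n = 6 each), a ratio of 2.07 of normal over low on the deposited scale. Samples at low CO2 lay close together, with a coefficient of variation of 8.46% against 24.4% at normal CO2. The spread at normal CO2 ran mostly between adjacent pairs, whose mean intensities were 1.92, 2.40 and 1.38, while those at low CO2 were 0.920, 0.931 and 0.901. After normalization the log2 fold change was -0.73 ± 0.17 (SE; 95% interval -1.10 to -0.36; limma adjusted p = 0.00451). All 6 same-numbered pairs were lower at low CO2, from -1.20 for number 3 to -0.09 for number 6. With median scaling in place of quantile normalization the change was -0.49 and did not pass (limma adjusted p = 0.0741). Averaging adjacent samples also left it short of the threshold (adjusted p = 0.110), and without numbers 1 and 2 the change was -0.67 (adjusted p = 0.0835). Taking the place off gave -0.39 (adjusted p = 0.0275).

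SBPASE encodes sedoheptulose-bisphosphatase, an irreversible step in regenerating the CO2 acceptor. Its intensity ran from 0.595 through a median of 0.797 to 0.982 at normal CO2 and from 0.225 through 0.366 to 0.418 at low CO2, again without overlap. The means of 0.798 ± 0.158 and 0.349 ± 0.0660 (SD, n = 6 each) gave a ratio of 2.29 of normal over low. At normal CO2 the adjacent samples were near copies of each other for this gene, differing by at most 0.14 in log2 after normalization, whereas the 3 pair means spread over 0.54. Low CO2 replicate 4 was the lowest of all at 0.225, while its neighbour, replicate 3, was the highest of its group. The normalized log2 fold change was -0.68 ± 0.17 (SE; 95% interval -1.04 to -0.32; limma adjusted p = 0.00626), and all 6 same-numbered pairs were lower, from -1.50 for number 4 to -0.42 for number 1. On averages of adjacent samples the change missed the threshold (adjusted p = 0.0996), as it did when these pairs entered as a random block (0.0533). At the same place in the numbering, the 69 other probes had a median change of -0.68, close to that of SBPASE. With the place taken off SBPASE was at -0.13 (adjusted p = 0.484).

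NTRC, the NADPH-dependent thioredoxin reductase of plastids, had the lowest fold change of the 5. Its intensity ran from 0.538 through a median of 0.929 to 1.07 at normal CO2, and from 0.302 through 0.336 to 0.411 at low CO2. Deposited values did not overlap, although normal CO2 replicate 6 at 0.538 lay far below replicates 1 to 4, the lowest of which was at 0.905. Quantile normalization brought an overlap. It placed normal CO2 replicate 6 at -1.32 in log2, below low CO2 replicates 1 to 3, the highest of which was at -1.03. The means of 0.867 ± 0.191 and 0.343 ± 0.0446 (SD, n = 6 each) gave a ratio of 2.53 of normal over low. The normalized log2 fold change was -0.80 ± 0.21 (SE; 95% interval -1.26 to -0.35; limma adjusted p = 0.00878). All 6 same-numbered pairs were lower, from -1.26 for number 1 to -0.08 for number 6. On averages of adjacent samples the fall missed the threshold (adjusted p = 0.119). It also missed it without numbers 1 and 2 (-0.63, adjusted p = 0.110) or without numbers 3 and 4 (-0.74, adjusted p = 0.0666). The 63 other probes at the same place had a median change of -0.77, and with the place taken off NTRC was at -0.14 (adjusted p = 0.577).

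AT5G58330 encodes NADP-dependent malate dehydrogenase, which turns oxaloacetate into malate at the cost of NADPH. Malate export then carries reducing power out of the chloroplast, a route known as the malate valve. Its intensity ran from 0.569 through a median of 1.76 to 2.31 at normal CO2 and from 3.84 through 7.83 to 10.5 at low CO2. Every low CO2 sample was above every normal one. The means were 1.60 ± 0.739 and 7.74 ± 2.24 (SD, n = 6 each), a ratio of 4.83 of low over normal. Replicates 3 and 4 were the lowest of both groups, at 0.898 and 0.569 for normal and at 7.30 and 3.84 for low CO2. The rise between same-numbered samples was largest in these, where the normal CO2 values were lowest, at 3.18 and 2.95 on the normalized log2 scale. It was smallest for number 6, where the normal CO2 value was highest, at 1.68. The log2 fold change was 2.44 ± 0.42 (SE; 95% interval 1.53 to 3.35; limma adjusted p = 0.000639), which 161 of the 3439 probes exceeded. It passed with adjacent samples averaged (adjusted p = 0.0395), after taking the place off (1.69 ± 0.25, adjusted p = 0.000360) and with both steps together (adjusted p = 0.0267). Other probes at its place had a median change of 0.50.

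AT3G52960, the gene of peroxiredoxin IIE, did not pass the test. Its intensity ran from 0.0474 through a median of 0.429 to 0.516 at normal CO2 and from 0.110 through 0.399 to 0.668 at low CO2, so the groups overlapped over most of their range. The means of 0.381 ± 0.169 and 0.400 ± 0.202 (SD, n = 6 each) differed by less than the spread between samples. Replicate 3 was the lowest of both groups, at 0.0474 and 0.110. The normalized log2 fold change was 0.78 ± 0.61 (SE; limma adjusted p = 0.335). Its 95% interval, from -0.57 to 2.12, reaches from a fall of 1.48-fold to a rise of more than 4-fold. Same-numbered samples were higher at low CO2 in 5 of 6 pairs after normalization, from -0.28 to 2.04 for number 3. On the deposited scale numbers 1 and 2 were lower, at -0.13 and -0.74, and the others higher. Without normal CO2 replicate 3 the normalized log2 fold change was 0.23 (adjusted p = 0.643). Without replicate 3 of both groups it was 0.51 with an SE of 0.24 (adjusted p = 0.121), a setting chosen after seeing the data. On the deposited scale it was 0.17 (adjusted p = 0.840), on averages of adjacent samples 0.78 (adjusted p = 0.410) and after taking the place off 0.47 (adjusted p = 0.580).

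The exact two-sided permutation test over the 12 normalized values of each gene gave p = 0.00216 for PRK, SBPASE and AT5G58330, the smallest that 6 against 6 allows. For NTRC the exact p was 0.00866 and for AT3G52960 the exact p was 0.275. This exact test takes the 12 samples as independent, and with adjacent samples averaged 3 against 3 could not go below 0.1.

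**Figure D2:**
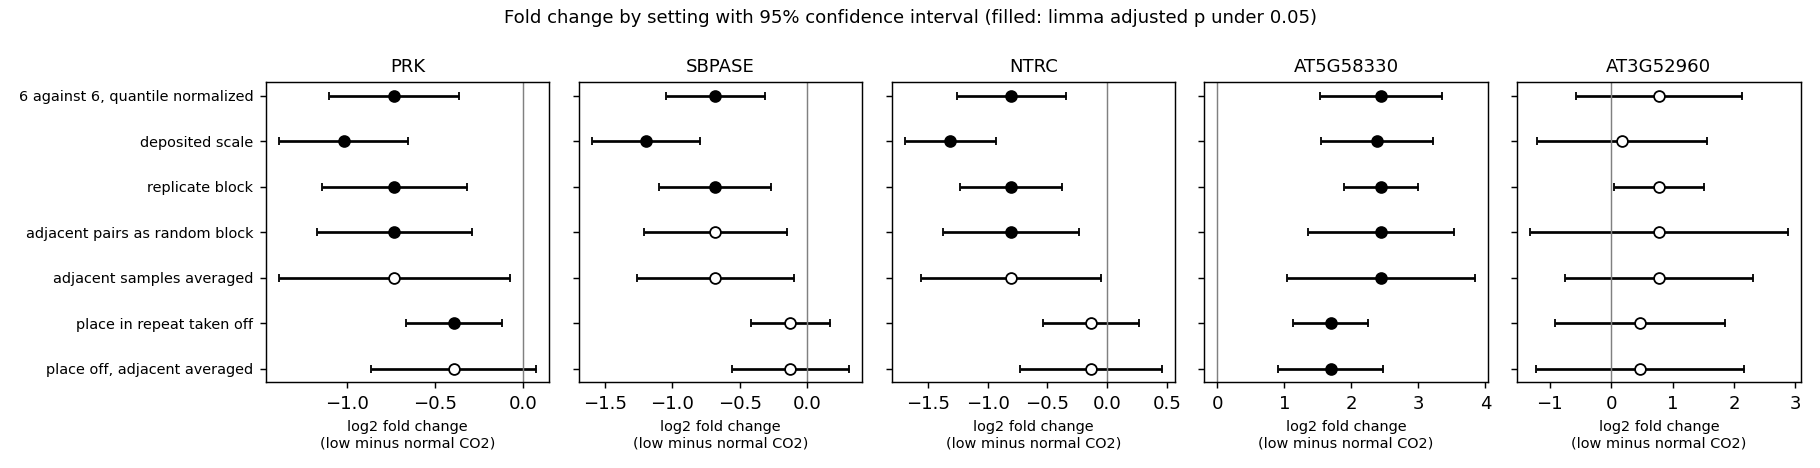
Log2 fold change (low minus normal CO2, x axis) of the 5 genes with its 95% confidence interval under 7 settings (y axis); filled points had a limma adjusted p under 0.05. AT5G58330 is filled in all 7 rows, AT3G52960 in none, and SBPASE and NTRC move to -0.13 and -0.14 with the place taken off.

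A ratio of 2 genes on the same array is free of any scaling factor, though not of their places or of array differences that vary with intensity. Mean array intensity averaged 1.07 at normal and 1.02 at low CO2, whereas the array medians averaged 0.519 and 0.359, so the arrays differed by more than a factor. The log2 ratio of AT5G58330 to PRK on the deposited scale went from -0.38 ± 1.15 to 3.02 ± 0.57 (SD, n = 6 each), so that AT5G58330 gained 10.5-fold on PRK. Against SBPASE the gain was 11.9-fold and against NTRC 12.9-fold. These gains include the differences between places. With the place taken off, the normalized log2 change of AT5G58330 was 1.69 in place of 2.44, and that of PRK -0.39 in place of -0.73. SBPASE was then at -0.13 in place of -0.68 and NTRC at -0.14 in place of -0.80. In all 3 ratios every low CO2 sample was above every normal one, and replicate 4 was the lowest of each group. These ratios show unequal change of the genes and not which of them changed. The log2 ratio of PRK to SBPASE changed by 0.18, from 1.24 ± 0.39 to 1.42 ± 0.41, and that of SBPASE to NTRC by 0.12, from -0.11 ± 0.52 to 0.01 ± 0.29 (SD, n = 6 each). Both changes were smaller than the spread between samples of a group. The ratio of PRK to NTRC changed by 0.29, from 1.13 ± 0.25 to 1.42 ± 0.26, slightly more than that spread. Among these 3 genes PRK kept the largest fall once the place was taken off, at -0.39 against -0.13 and -0.14. No test was made on these ratios. On the deposited scale the median of all probes was -0.60, and relative to it PRK was at -0.42, SBPASE at -0.60, NTRC at -0.72, AT5G58330 at 2.98 and AT3G52960 at 0.77.

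**Figure D3:**
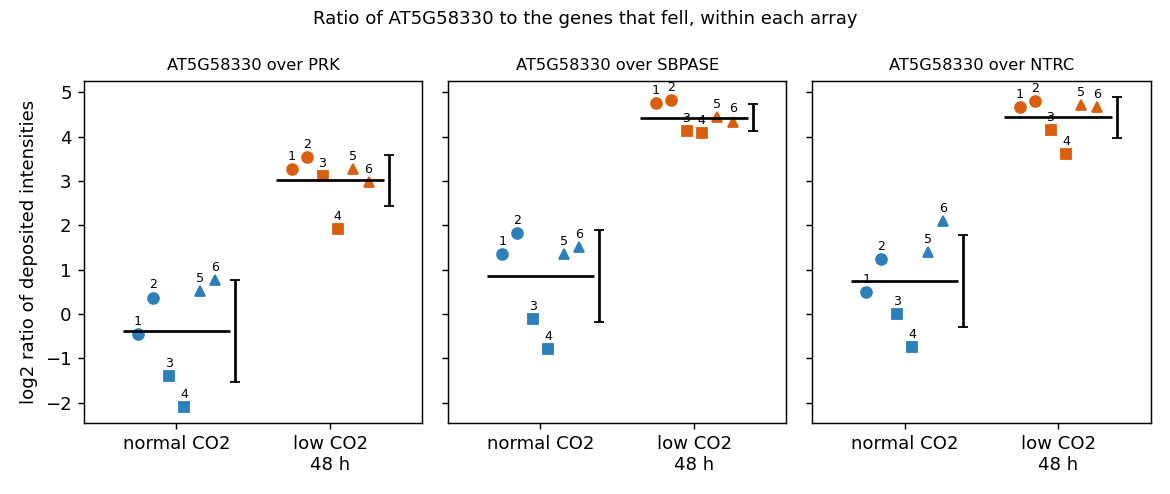
Log2 ratio of the deposited intensity of AT5G58330 to that of PRK, SBPASE and NTRC on each array (y axis) in the 6 normal and 6 low CO2 samples; digits are replicate numbers, lines are means and whiskers the SD. The groups do not overlap in any panel, and the mean log2 ratio to PRK went from -0.38 to 3.02.

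The place of the probes in the numbering bore on these genes unequally. The cycle was divided into 48 places, whose median log2 fold changes ran from -0.79 to 1.03. The 3 genes that fell all lay at places where the other probes were lower at low CO2, with place medians of -0.36 for PRK, -0.68 for SBPASE and -0.77 for NTRC. AT5G58330 and AT3G52960 lay at places with medians of 0.50 and 0.38. With the place taken off, 2 of the 5 genes passed, against 37.5% of all probes. With adjacent samples averaged, 1 of the 5 passed, against 18% of all probes, and with both steps 1 of the 5, against 13.2%. With adjacent pairs as a random block 3 of the 5 passed (29.3% of all probes), with the replicate number as a block 4 of the 5 (45.9%) and on the deposited scale 4 of the 5 (48.7%).

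**Figure D4:**
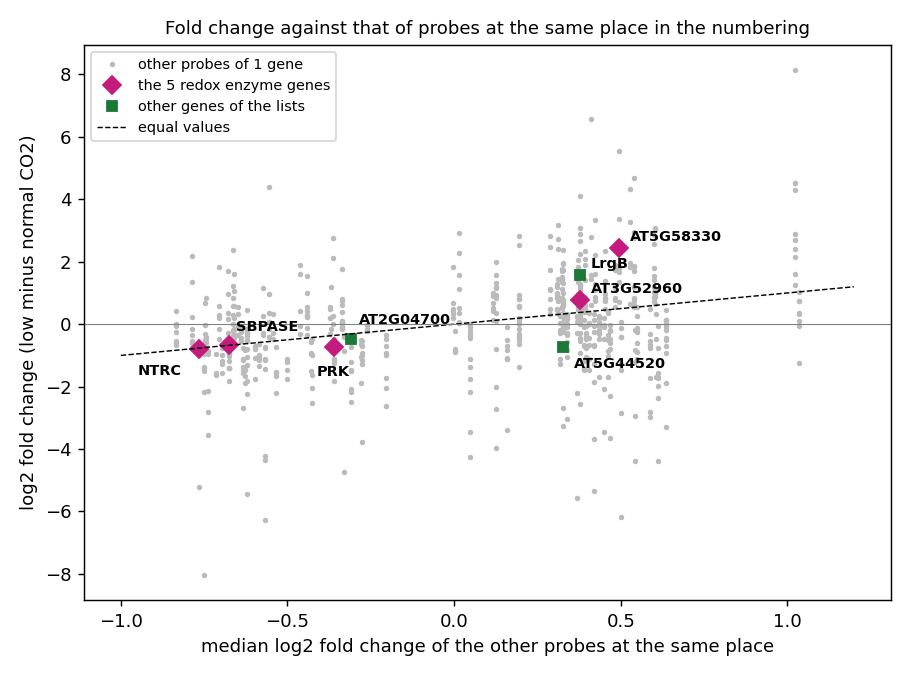
Log2 fold change (low minus normal CO2, y axis) of probes of 1 gene against the median log2 fold change of the other probes at the same place in the numbering (x axis); diamonds are the 5 genes, squares the other measured genes of the pathway lists, and the dashed line marks equal values. SBPASE and NTRC lie close to the line, AT5G58330 lies above it and AT5G44520 below.

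Few other genes of these pathways were measured by a probe of 1 gene. Of 121 genes in the 8 pathway lists, 8 were, the 5 above included. In the Calvin-Benson list of 28 genes all 3 measured ones fell, where 23.5% of all probes did. PRK and SBPASE, already counted above, are among the 3, and the lists were chosen with earlier results of these data known. None of the 3 passed on averages of adjacent samples. The third, AT5G44520, belongs to the ribose 5-phosphate isomerase family. That enzyme makes ribulose 5-phosphate, the substrate of phosphoribulokinase. Its intensity ran from 0.623 through a median of 1.16 to 1.48 at normal CO2 and from 0.417 through 0.510 to 0.595 at low CO2. Deposited values did not overlap but normalized ones did, and all 6 same-numbered pairs were lower. The normalized log2 fold change was -0.72 ± 0.20 (SE; limma adjusted p = 0.0127), close to those of PRK and SBPASE. Averages of adjacent samples (adjusted p = 0.0757) and a random block of these pairs (0.133) both put it outside the threshold. Unlike PRK and SBPASE it lay at a place where the other probes were higher, with a median of 0.33. Taking the place off brought AT5G44520 to -1.05 (adjusted p = 0.000511), and it then also passed on averaged samples (adjusted p = 0.0175).

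In the list of the plastid thioredoxin system both measured genes of 21 fell, NTRC and AT2G04700, again against 23.5% of all probes, and neither passed on averages of adjacent samples or with the place off. AT2G04700 encodes the catalytic subunit of ferredoxin-thioredoxin reductase, the enzyme that links thioredoxins to the light reactions. Its intensity ran from 0.602 through a median of 0.685 to 0.866 at normal CO2 and from 0.257 through 0.372 to 0.440 at low CO2, where deposited values did not overlap but normalized ones did. The normalized log2 fold change was -0.46 ± 0.16 (SE; limma adjusted p = 0.0408), and all 6 same-numbered pairs were lower. This call was near the threshold. Leaving out single samples, 3 of 12 fits called it, with values from -0.55 to -0.37, and it was not called with median scaling (-0.43, adjusted p = 0.0511). Nor was it called on averages of adjacent samples (adjusted p = 0.197) or once the place was taken off (-0.20, adjusted p = 0.265).

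AT5G58330 was the single measured gene of 12 in the malate valve list and AT3G52960 of 15 in the list of plastid peroxide scavenging. In photorespiration, the pathway that recycles the product of oxygenation by Rubisco, LrgB was the single measured gene of 20. This plastid glycolate and glycerate transporter gene had a dim probe. Its intensity ran from 0.0466 through a median of 0.150 to 0.212 at normal CO2. At low CO2 it ran from 0.0916 through 0.225 to 0.241, and deposited and normalized values both overlapped. Every value lay below the lowest array median of 0.343, and the filter on dim probes removed the gene. LrgB rose by 1.57 ± 0.49 on the normalized log2 scale (SE, limma adjusted p = 0.0231). It was at 0.63 on the deposited scale (adjusted p = 0.218). Without normal CO2 replicate 2, the lowest sample, the normalized rise was smaller and still passed. LrgB passed on averages of adjacent samples (adjusted p = 0.0413). It missed the threshold when these pairs entered as a random block (adjusted p = 0.202), with 75th percentile scaling (0.0634) and once the place was taken off (1.21, 0.0982). No probe of 1 gene was found for the 11 other thioredoxin targets, the 8 genes of electron supply or the 6 carbonic anhydrases. A further 8 probes list a gene of these lists beside other genes and were not used.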

How the data were processed

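Total RNA of 12 samples was measured on arrays, and the deposited table holds intensity values on a linear scale from 0 to 100. Per the labels, titles give the group and a replicate number; how the arrays were scanned, background-corrected and scaled is not stated in the sources used here. The 5 genes and the lists were chosen with earlier results of these data known. Of 692 probes of 1 gene, 690 matched the TAIR10.1 gene table. The array's build is not known, so no coordinates or sequences are printed.

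Any 0 was replaced by the lowest value above 0 on the same array before taking log2 and quantile normalizing. Low and normal CO2 were compared over all 3439 probes with limma 3.58.1 in R 4.3.3 (lmFit, eBayes, two-sided, 6 against 6, no block) at a Benjamini-Hochberg adjusted p of 0.05; the procedure was tested on simulated data. The number of arrays limits the precision. Deviations of same-numbered samples of the groups had correlations of 0.128 to 0.214, each above a preset minimum of 0.1. Correlations of differently numbered samples are not given here, so whether the numbers pair the samples was not settled. Differences between same-numbered samples are given as a description.

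The place of a probe was its number within a repeat of 288, in bins of 6 numbers. Each sample's median deviation per bin was subtracted. Alternatives were no scaling, cyclic loess, scaling to the median or the 75th percentile, the replicate number as a block, averaged or randomly blocked adjacent pairs, a filter on dim probes at the 25th percentile of mean intensity, a pseudocount of 0.0493, values of 0 as missing, probes of 1 gene, a prior with trend and robust estimation, and samples left out. Named were the 5 genes, up to 4 measured genes per list, and for each of the 5 the 2 genes with the most similar pattern.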

Additional observations from a re-analysis of the deposited data

Results flagged for a closer look

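Of 16 sets of 6 values (8 genes in each group), 4 held a sample distant from the rest on the normalized log2 scale, where chance gives about 0.8, or 1 in 20. The AT3G52960 intensity of normal CO2 replicate 3 was 0.0474, while its group otherwise spanned 0.392 to 0.516, so that the gap made up 0.956 of the log2 range. On that array the 14 other probes within 10 numbers of the AT3G52960 probe deviated from their group means by a median of 0.05, against -2.72 for AT3G52960 itself. In low CO2 replicate 3 these probes were at -0.46 and AT3G52960 at -1.46, in replicate 5 at 0.57 and 0.93, and in replicate 6 at 0.32 and 0.70. In low CO2 replicate 4 they were at -0.43 and AT3G52960 at 0.18, in replicate 1 at -0.07 and 0.12, and in replicate 2 at -0.02 and -0.48. Normal CO2 replicate 3 was also low for AT5G44520, with 0.623 where the group otherwise spanned 1.13 to 1.48 and a gap of 0.759. LrgB had 2 such samples, normal CO2 replicate 2 with a gap of 0.656 and low CO2 replicate 4 with one of 0.743.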

How the results depend on the processing

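AT5G58330 stayed higher and passed the threshold in all 15 alternatives that kept every sample, from 1.69 to 2.91, and in all 12 fits that left out 1 sample, from 2.16 to 2.64. AT3G52960 passed in none of these, at 0.17 to 0.79 and 0.23 to 1.02. PRK, SBPASE and NTRC stayed lower in all of them and passed in 11, 10 and 11 of the 15. With 1 sample left out all 3 passed in all 12 fits, at -0.84 to -0.67, -0.75 to -0.57 and -0.99 to -0.71. With the replicate block, limma adjusted p was 0.0139 for PRK, 0.0187 for SBPASE, 0.000509 for AT5G58330, 0.0109 for NTRC and 0.0787 for AT3G52960, and no call changed. It called 1578 probes. Averaging adjacent samples left PRK at -0.73, SBPASE at -0.68 and NTRC at -0.80, none of which passed, also with a replicate block of the averages (adjusted p = 0.134, 0.133 and 0.108) in these fits of 3 against 3. SBPASE at -0.68 did not pass with adjacent pairs as a random block. PRK was at -0.49 with median scaling and did not pass, and the cause was not tested. With the place taken off SBPASE was at -0.13 and NTRC at -0.14, and with averaging as well so were both, with PRK at -0.39 (adjusted p = 0.208). Without numbers 1 and 2 of both groups PRK was at -0.67 (adjusted p = 0.0835) and NTRC at -0.63, and without numbers 3 and 4 NTRC was at -0.74; none passed. Against 1457 probes called in the main comparison, 618 were called on averaged samples, 375 on averages with a replicate block and 454 on averages with the place taken off, while 273 of the 692 probes of 1 gene were called when fitted alone. On the deposited scale 373 probes were called higher and 1302 lower, against 649 and 808. Intensity over background is unknown, as the table holds no background values.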

Other observations

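Among the 691 other probes of 1 gene, those whose normalized log2 values followed each of the 5 genes most closely over the 12 samples were named by Pearson's r, as a description, since the samples share arrays and the group difference. AT5G58330 was followed by AT4G39760 (0.962), which rose by 3.28, and by AT4G24930 (0.961), encoding a thylakoid lumen protein, which rose by 0.94 on the log2 scale. PRK was followed by AT4G27390 (0.947), at -0.54, and AT4G16610 (0.942), at -1.17. SBPASE was followed by AT1G61990 (0.907), encoding an mTERF protein of the family that acts on organelle transcripts, at -1.66, and by AT4G31210 (0.906), encoding a DNA topoisomerase, at -1.11. NTRC was followed by AT2G04360 (0.901), at -0.84, and AT2G44760 (0.888), at -0.85. All of these passed the limma threshold. AT3G52960 was followed by AT1G09200 (0.873), a histone H3 gene, and AT1G29700 (0.860), at 0.78 and 1.02, neither of which passed (limma adjusted p = 0.691 and 0.2497). The genes named for PRK, SBPASE and NTRC all lay at places with negative median changes, from -0.75 to -0.33. Those named for AT5G58330 lay at places with medians of 0.53 and 0.31, and those for AT3G52960 at 0.38 and 0.60. How much of the likeness goes with the place was not tested.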
